A study of Mus musculus with 37 samples.

Results

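The genes described here are 10 genes of autophagy, measured in mammary glands of mice under calorie restriction, wheel running, both or neither. The members were Ulk1, Becn1, Atg5, Atg12, Gabarap, Gabarapl1, Gabarapl2, Map1lc3a, Map1lc3b and Sqstm1, taken as every probe set that the array platform assigns to one of these symbols. They made up 10 of the 12393 genes named on the array, and 22 of its 22690 probe sets. Female C57BL/6 mice, 9 weeks old at randomisation and with no engineered allele named, were studied for 6 weeks. The groups were restricted mice that also had a wheel to run on (CR+EX, 9 arrays), restricted mice without a wheel (CR, 9 arrays), freely fed mice with a wheel (AL+EX, 9 arrays) and freely fed mice without one (AL, 10 arrays). Restricted mice were given 70% of the calories and the full amount of every other nutrient. RNA came from whole thoracic glands, left and right pooled, so in this bulk tissue fewer cells of a type and less RNA per cell cannot be told apart.

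Macroautophagy is the route by which a cell encloses part of its cytoplasm in a double membrane, the autophagosome, and delivers it to the lysosome for breakdown. A kinase complex built on ULK1 starts the process, a lipid kinase complex that contains BECN1 marks the site, and the ATG12-ATG5 conjugate helps attach ATG8-family proteins, the LC3 and GABARAP proteins, to the growing membrane. SQSTM1, also called p62, binds ubiquitin-tagged cargo and ATG8-family proteins and is itself degraded with the cargo. Autophagy is a well-known response of mammalian cells to nutrient shortage, and much of its control lies in protein modification and turnover, which RNA levels do not measure.

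Each array gave one Affymetrix signal intensity per probe set, on a linear scale set so that the trimmed mean was between 500.165 and 500.23 on every array. Differences are on the scale log2(signal + 16) and come from a limma fit to all 37 arrays, with p-values adjusted by Benjamini and Hochberg over the 16969 probe sets tested, and called under 0.05. The constant 16 makes differences of dim probe sets too small. Of the 22 member probe sets, 20 were bright enough to be tested. The other 2 were a Map1lc3b probe set (1428024_at, signals 5.80 to 69.6) and an Atg12 probe set (1439457_x_at, signals 0.60 to 84.1). Levels of different probe sets are not comparable with each other, and the number of arrays limits the precision.

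Genes of luminal epithelium, which marks the labelled tissue, were measured above the test's lower limit on average on every array, together with genes of fat and skeletal muscle. On the same log2 scale, the mean over luminal epithelial genes lay between 8.52 and 11.07 on the 37 arrays, over basal epithelial genes between 5.92 and 7.90, over adipocyte genes between 12.47 and 13.83, and over skeletal muscle genes between 13.33 and 15.26. B lymphocyte genes were high on 15 arrays, which were 3 CR+EX, 4 CR, 4 AL+EX and 4 AL animals. The ratio of 3' to 5' signal of the Gapdh control, which is higher where RNA is degraded, exceeded 2 on 5 arrays, 2 CR+EX and 3 AL. The animal numbers fall into 4 runs in ascending order, called run 1 to run 4 here, which hold 8 (run 1), 11 (run 2), 10 (run 3) and 8 arrays (run 4). Every run held all 4 groups, and no label calls a run a batch. All 8 arrays of run 4 were among the 15 high in B lymphocyte genes. Of the 5 arrays with a high Gapdh ratio, 4 lay in run 1. Within each run the animals were numbered by group in the same sequence, so place in a run and group cannot be told apart.

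Under restriction 1 of the 10 genes passed the test. Gabarapl2, which encodes an ATG8-family protein of the GABARAP branch, had a signal 1.25-fold higher in the restricted glands. Sqstm1 had the second smallest p of the members, with a signal 1.20-fold lower in the restricted glands, and did not pass. The other 8 genes did not pass on any of their probe sets, and no wheel contrast called a member.

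In the averaged restriction contrast, CR+EX and CR against AL+EX and AL, 1 of the 20 tested member probe sets was called higher and 0 were called lower. Of all 16969 probe sets tested, 7.31% were called, with 3.43% called higher and 3.88% called lower, so the members' count of 1 lay near the background. Of the members, 8 of 20 probe sets had a positive difference, with a median of -0.076, against a median of -0.027 and a positive share of 44.5% over all probe sets tested. At an unadjusted p under 0.05 there were 2 member probe sets, and 3868 of all. The split of the calls over all probe sets, 582 higher and 658 lower, moved with the scaling: it was 807 and 310 with arrays centred on their median and 660 and 511 after quantile normalization. Without the 10 arrays of run 3, the share called over all probe sets was 0.448%.

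**Figure D1:**
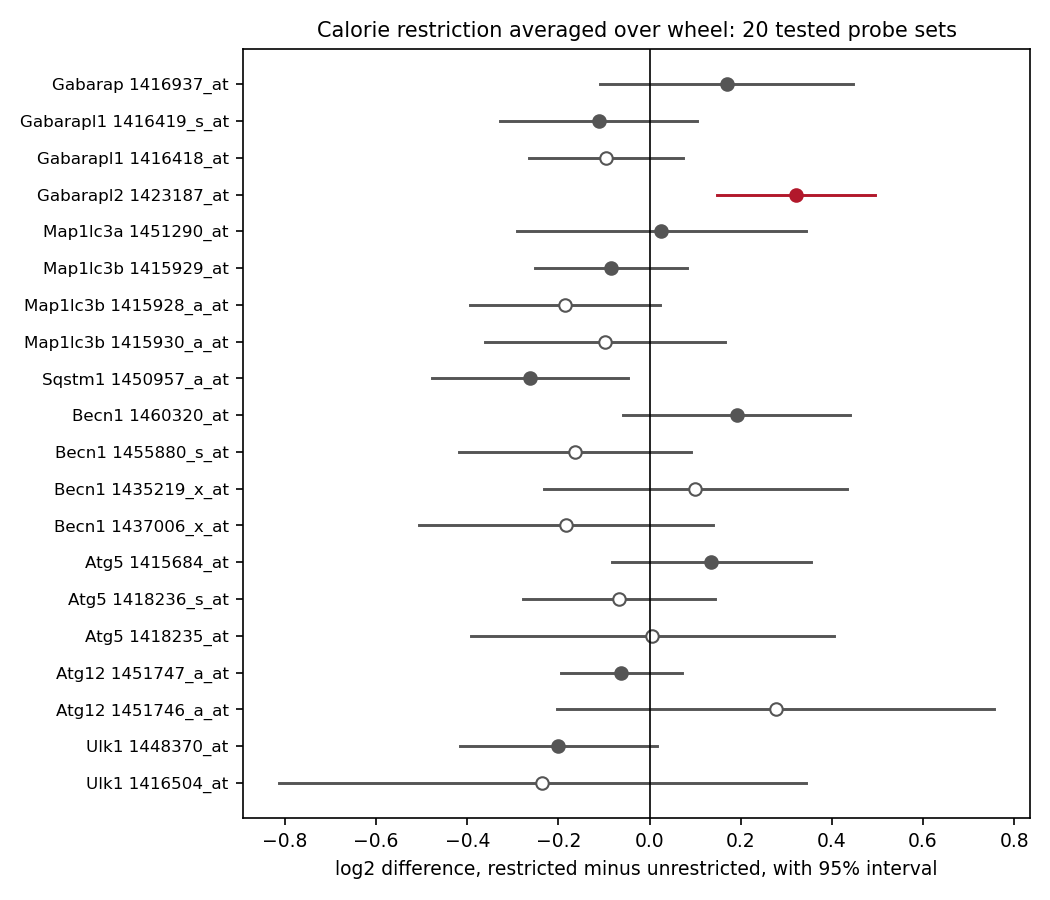
Difference between restricted and unrestricted glands for the 20 tested probe sets of the 10 genes, averaged over the wheel states, as log2 difference with its 95% interval. Filled points are each gene's brightest probe set, open points the others, and red marks the call: Gabarapl2 at 0.32 is the only red point, and Sqstm1 at -0.26 has the most negative value.

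Promoter sequences are shown for Gabarapl2 and Sqstm1, the members with the smallest p, and for Atg5, the only member whose upstream window held a motif that was searched. They are the 250 bases upstream of the annotated start, written 5′ to 3′ on the strand of the gene, from RefSeq on GRCm38.p6: chr8:111940453-111940702 on the plus strand for Gabarapl2, chr11:50210821-50211070 on the minus strand for Sqstm1 and chr10:44268089-44268338 on the plus strand for Atg5. Capitals mark the motif.
Gabarapl2: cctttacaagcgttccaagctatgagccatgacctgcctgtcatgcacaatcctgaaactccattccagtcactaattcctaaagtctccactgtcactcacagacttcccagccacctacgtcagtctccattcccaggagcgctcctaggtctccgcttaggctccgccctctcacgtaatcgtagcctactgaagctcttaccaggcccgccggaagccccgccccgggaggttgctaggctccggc
Sqstm1: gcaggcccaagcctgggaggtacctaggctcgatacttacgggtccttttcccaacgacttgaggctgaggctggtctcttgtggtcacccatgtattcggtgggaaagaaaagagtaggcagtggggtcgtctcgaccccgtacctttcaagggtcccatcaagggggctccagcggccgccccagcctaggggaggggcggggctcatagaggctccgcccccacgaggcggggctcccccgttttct
Atg5: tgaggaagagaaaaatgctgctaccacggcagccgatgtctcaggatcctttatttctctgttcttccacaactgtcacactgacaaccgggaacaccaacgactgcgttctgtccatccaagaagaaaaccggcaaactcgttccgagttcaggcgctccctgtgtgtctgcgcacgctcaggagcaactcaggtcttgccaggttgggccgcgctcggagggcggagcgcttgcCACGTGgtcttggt
The promoter table listed 7 of the 10 members. Both strands were searched for the E-box CACGTG, bound by TFEB and by clock factors among others, which 6.02% of 32851 mouse promoter windows of this length held. The other motifs were the FOXO site GTAAACA (3.17% of windows), the D-box TTATGTAA (0.819%), the cyclic AMP response element TGACGTCA (1.55%) and the core of the antioxidant response element bound by NRF2 (0.134%). The CACGTG of Atg5 began at position -14 from the start, and the other 6 listed members held none of the 5 motifs in these windows. A match describes the letters and not a bound site.

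Ulk1 encodes the kinase that starts autophagosome formation. Its brightest probe set (1448370_at) had signals of 674 to 1304 in CR+EX glands (median 1043), 754 to 1317 in CR glands (972), 638 to 1772 in AL+EX glands (1182) and 1031 to 1382 in AL glands (1175). The groups overlapped, and 4 of the 18 restricted glands lay above the median of the 19 unrestricted ones. The averaged difference was -0.20 ± 0.11 (SE) with an adjusted p of 0.26. The second probe set (1416504_at), which ran from 26.3 to 610 over all arrays, had a difference of -0.23 ± 0.29. It gave 0.15 ± 0.32 when the 15 arrays with high B lymphocyte signal were left out. Both SEs were larger than the differences, so the direction of this probe set is not settled.

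Becn1 encodes beclin 1, a subunit of the lipid kinase complex that marks where the autophagosome forms. The brightest of its 4 probe sets (1460320_at) had median signals of 948 in CR+EX, 889 in CR, 951 in AL+EX and 753 in AL glands, with a whole range of 407 to 1315. Its averaged difference was 0.19 ± 0.12 (adjusted p 0.38), and CR against AL gave 0.32 ± 0.17 (adjusted p 0.39). The other probe sets gave -0.16 ± 0.13 (1455880_s_at), 0.10 ± 0.16 (1435219_x_at) and -0.18 ± 0.16 (1437006_x_at). By the array maker's naming, probe sets ending in _s_at or _x_at can also match other transcripts. The 4 probe sets of Becn1 went in both directions, and over the 37 arrays the correlations between them ran from -0.49 to 0.14. With their mean taken as the level of the gene the difference was -0.014.

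Atg5 and Atg12 encode the partners of the conjugate that helps lipidate the ATG8-family proteins. Atg5 (1415684_at) had signals of 246 to 463 in CR+EX glands (median 374), 257 to 427 in CR glands (350), 212 to 519 in AL+EX glands (323) and 171 to 441 in AL glands (336). The groups overlapped, with 13 of 18 restricted glands above the unrestricted median, and the difference of 0.14 ± 0.11 did not pass (adjusted p 0.50). A second Atg5 probe set (1418236_s_at) gave -0.067 ± 0.10 and correlated with the first at -0.61 over the 37 arrays. The third (1418235_at) gave 0.0063 ± 0.20.

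Atg12 was steady on its brighter tested probe set and variable on the other. On 1451747_a_at the signal was 479 to 633 in CR+EX glands (median 544), 485 to 691 in CR glands (550), 425 to 647 in AL+EX glands (557) and 473 to 762 in AL glands (584). The SD of its log2 values over all arrays was 0.18, lower than that of all but 1.76% of the probe sets tested. The difference was -0.062 ± 0.066 (adjusted p 0.63), with a 95% interval of the fold that ran from 0.87 to 1.05. The dimmer Atg12 probe set (1451746_a_at) had an SD of 0.78 and a signal of 29.3 to 429.9 over all arrays, and gave 0.28 ± 0.24 (adjusted p 0.54).

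**Figure D2:**
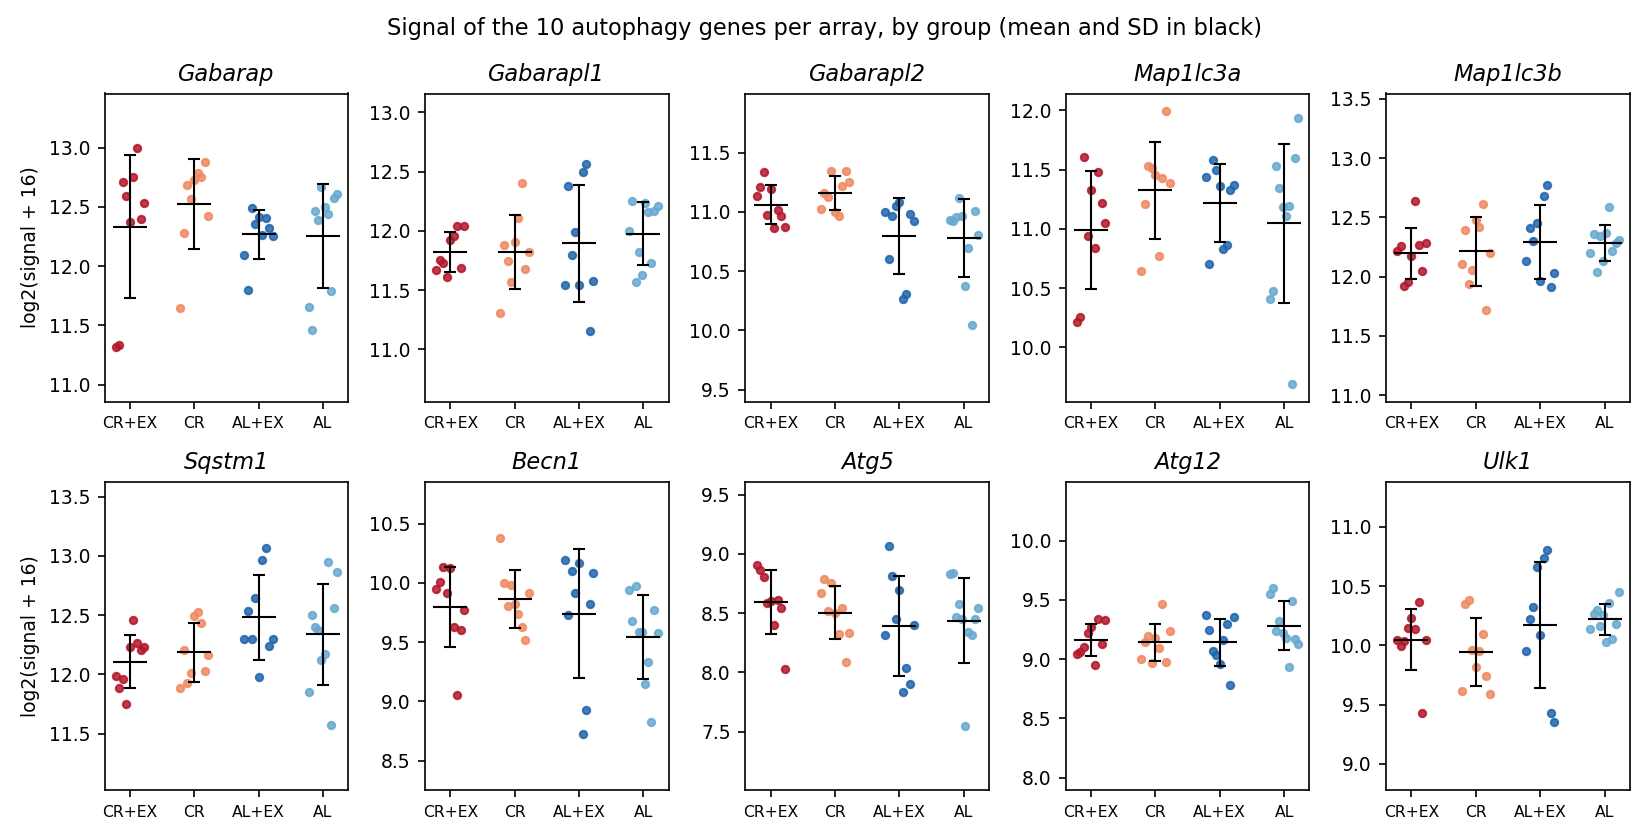
Levels of the 10 genes as log2(signal + 16), each gene by its brightest probe set, in CR+EX, CR, AL+EX and AL glands. Points are single arrays (9, 9, 9 and 10) and bars are the mean with SD. The groups overlap for every gene, and 10 of 18 restricted Gabarapl2 arrays lie above the highest unrestricted one.

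Gabarapl2 (1423187_at) was the member that passed. Its signal was 1851 to 2570 in CR+EX glands with a median of 2052, and 1977 to 2592 in CR glands with a median of 2266. It was 1212 to 2158 in AL+EX glands with a median of 1986, and 1043 to 2199 in AL glands with a median of 1930. The groups overlapped, but 10 of 18 restricted glands lay above the highest unrestricted gland, and 7 of 19 unrestricted glands lay below the lowest restricted one. The spread was narrower under restriction, with an SD of 0.16 on the log2 scale in the 18 restricted glands and 0.32 in the 19 unrestricted ones, a difference that was not tested. The 5 unrestricted glands of run 3, at 1043 to 1639 (median 1250), all lay below the lowest restricted gland. In runs 1, 2 and 4 the unrestricted medians were 1929, 2043 and 1965, so the unrestricted spread takes in a shift of run 3. The averaged difference was 0.32 ± 0.086 with an adjusted p of 0.017 by limma, and the 95% interval of the fold ran from 1.11 to 1.41. Among all probe sets tested it ranked 595 by p.

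Each pair of diets gave the same direction for Gabarapl2 without passing by itself. CR against AL gave 0.38 ± 0.12 (p 0.0031, adjusted p 0.13 by limma). CR+EX against AL+EX gave 0.27 ± 0.12 (p 0.037, adjusted p 0.31 by limma). The difference between these effects, the interaction, was -0.11 ± 0.17 (adjusted p 1 by limma).

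Within the runs of animal numbers the restricted glands had the higher mean Gabarapl2 in 4 of 4 runs, by 0.27, 0.18, 0.67 and 0.18. Signals of restricted and unrestricted glands did not overlap in run 1 (2069 to 2354 against 1536 to 2029) or in run 3 (1851 to 2369 against 1043 to 1639). They overlapped in run 2 (1990 to 2585 against 1969 to 2199) and run 4 (1854 to 2592 against 1772 to 2044). The share of all probe sets that separate in this way within a run was not counted. Gabarapl2 was also called on these same arrays, so the separation is a description only. With the run as a block the averaged difference was 0.33 (adjusted p 0.00047), where CR against AL (0.40, adjusted p 0.0080) and CR against AL+EX (0.41, adjusted p 0.0049) also passed. Under that block the shares called over all probe sets were also larger, at 17.5% for the averaged contrast, 6.56% for CR against AL and 7.73% for CR against AL+EX.

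The size of this difference rested in part on run 3. Without its 10 arrays the Gabarapl2 difference was 0.20 (adjusted p 0.15). With the 15 arrays of high B lymphocyte signal left out it was 0.29 (adjusted p 0.12), and without the 5 arrays with a high Gapdh ratio 0.27 (adjusted p 0.052). In these fits 3.65% and 5.56% of all probe sets were called, and the first also left out all of run 4. Leaving out any single array kept the call, with adjusted p between 0.011 and 0.031. Adipocyte genes as a list had 1 of 8 tested called higher under restriction (median 0.21) and luminal genes 2 of 8 called lower (median -0.35). Macrophage genes had 1 of 6 called higher (median 0.15) and red blood cell genes 1 of 2 (median 0.26). B lymphocyte genes had 0 of 8 called by limma, with a median of -0.42 and a smallest adjusted p of 0.45. T lymphocyte genes had 0 of 5 called (median -0.34), basal epithelial genes 0 of 5 (0.015) and brown fat genes 0 of 4 (0.12). Over all probe sets tested, 3.43% were called higher and 3.88% lower. The mean over skeletal muscle genes had a median of 14.24 in restricted and 14.26 in unrestricted glands, with 0 of 10 muscle genes called by limma. Gabarapl2 correlated with the adipocyte list at r = -0.058 with the muscle list at r = -0.29 and with the luminal list at r = -0.28 over the 37 arrays, and none of the 3 passed. With the luminal list r was negative in every run, at -0.63, -0.38, -0.69 and -0.22. With the other lists the sign differed between runs 1 to 4. The adipocyte list gave r of -0.18, 0.33, 0.70 and 0.34, and the muscle list 0.31, 0.19, -0.51 and -0.40.

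**Figure D3:**
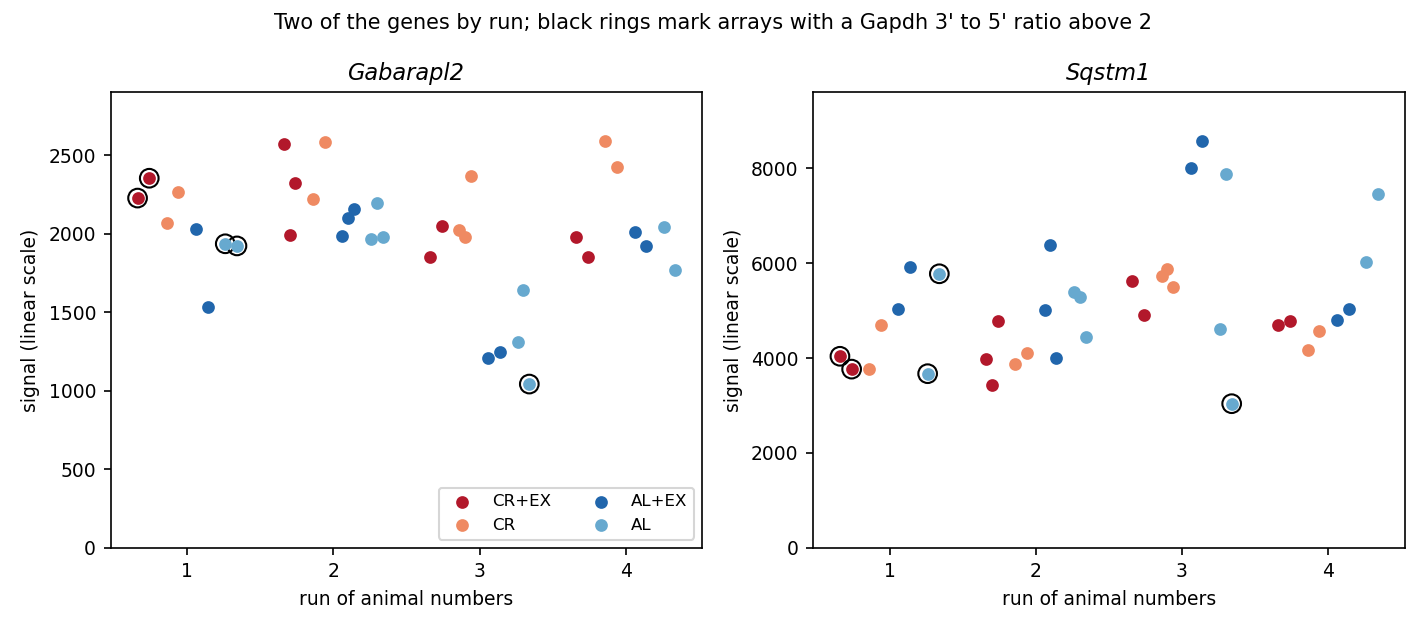
Linear signal of Gabarapl2 and Sqstm1 by run of animal numbers, restricted glands left of unrestricted ones in each run. Points are single arrays, and rings mark the 5 arrays with a Gapdh ratio above 2. The widest gap for Gabarapl2 is in run 3, where restricted glands lie at 1851 to 2369 and unrestricted ones at 1043 to 1639.

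The other ATG8-family members did not pass. Gabarap (1416937_at) had a signal of 2538 to 8139 in CR+EX glands (median 5893), 3187 to 7501 in CR glands (6549), 3552 to 5750 in AL+EX glands (5091) and 2804 to 6472 in AL glands (5578). The groups overlapped, although 8 of 18 restricted glands lay above the highest unrestricted one and 2 lay below the lowest. The difference was 0.17 ± 0.14 (adjusted p 0.51), and by run it was -0.11, 0.13, 0.52 and 0.12. Without run 1 it was 0.26 with an adjusted p of 0.046. The run accounted for 64.4% of the variance of Gabarap over the arrays, and the group for 6.60%.

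Gabarapl1 (1416419_s_at), a close relative of Gabarap, had median signals of 3448 in CR+EX, 3602 in CR, 3544 in AL+EX and 4330 in AL glands, within 2259 to 6051 over all arrays. Its difference was -0.11 ± 0.11 (adjusted p 0.59), and its second probe set (1416418_at) gave -0.095 ± 0.083 (adjusted p 0.55). The probe sets correlated at 0.65 over the arrays. Of the 18 restricted glands, 4 lay above the unrestricted median.

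Map1lc3a and Map1lc3b encode LC3A and LC3B, of which lipidated LC3B is the usual marker of autophagosomes. Map1lc3a (1451290_at) had median signals of 2100 in CR+EX, 2741 in CR, 2619 in AL+EX and 2318 in AL glands. Its averaged difference was 0.026 ± 0.16 (adjusted p 0.95), and its interaction was -0.51 ± 0.31 (p 0.11, adjusted p 1 by limma): CR against AL gave 0.28 and CR+EX against AL+EX gave -0.23, neither of which passed. The direction of the averaged value turned under several settings, among them quantile normalization (-0.018).

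Map1lc3b (1415929_at) had median signals of 4751 in CR+EX, 4677 in CR, 5022 in AL+EX and 5024 in AL glands, with a whole range of 3352 to 6982. The 3 tested probe sets gave -0.084 ± 0.083, -0.19 ± 0.10 (1415928_a_at) and -0.098 ± 0.13 (1415930_a_at), with adjusted p of 0.60, 0.28 and 0.72. All 3 pointed the same way and correlated with each other at 0.44 to 0.65 over the arrays. For 1415928_a_at, 2 of 18 restricted glands lay above the unrestricted median.

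Sqstm1 (1450957_a_at), the cargo receptor, had a signal of 3430 to 5619 in CR+EX glands with a median of 4703, and 3772 to 5884 in CR glands with a median of 4565. It was 4008 to 8577 in AL+EX glands with a median of 5028, and 3038 to 7879 in AL glands with a median of 5343. The groups overlapped, with 7 of 19 unrestricted glands above the highest restricted one and 4 of 18 restricted glands above the unrestricted median. The averaged difference was -0.26 ± 0.11 (p 0.018, adjusted p 0.12 by limma), with a 95% interval of the fold from 0.72 to 0.97. By run it was -0.31, -0.33, -0.20 and -0.33. With the run as a block the adjusted p by limma was 0.045 (-0.27), and after quantile normalization 0.047 (-0.32). In these fits 17.5% and 6.9% of all probe sets were called, with 1610 and 511 called lower. Without either change, CR+EX against AL+EX gave -0.37 ± 0.15 (p 0.019, adjusted p 0.23 by limma), and CR against AL gave -0.15 ± 0.15 (adjusted p 0.69 by limma). The interaction was -0.22 ± 0.21 (adjusted p 1 by limma).

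The running wheel gave no call among the members. In the wheel contrast, CR+EX and AL+EX against CR and AL, limma called 0 of 16969 probe sets (0%), of which 461 had an unadjusted p under 0.05, and 0 of the 20 member probe sets had one. Over the brightest probe sets of the 10 genes the difference lay between -0.090 (Gabarap) and 0.066 (Becn1), and all 95% intervals of the fold lay within 0.759 and 1.24. The interaction of diet and wheel had 0 calls among all probe sets (0%) and 553 at an unadjusted p under 0.05, with 0 of these among the members. AL+EX against AL and CR+EX against CR also had 0 calls (0% each), with 985 and 162 probe sets at an unadjusted p under 0.05 and no member among them.

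The pairs across diet called 0 members by limma, against small shares of all probe sets. CR against AL called 0.348% of all probe sets, and 2 member probe sets had an unadjusted p under 0.05. CR+EX against AL+EX called 1.04%, CR+EX against AL 0.436% and CR against AL+EX 1.61% (0.796% higher), with 2, 1 and 1 member probe sets at an unadjusted p under 0.05. These pairs share groups, so their values are not independent of each other.

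The members varied together in part. After the mean of each run was taken off, the highest correlations over the 37 arrays were Gabarap with Map1lc3a (r = 0.77), Gabarapl1 with Ulk1 (0.75), Map1lc3b with Sqstm1 (0.75) and Gabarapl1 with Map1lc3b (0.70). The lowest was Becn1 with Ulk1 (-0.55). Gabarapl2 went with Becn1 at 0.595, Gabarap at 0.53, Map1lc3a at 0.48 and Atg5 at 0.38. It went with Ulk1 at -0.36, and with Gabarapl1, Map1lc3b, Sqstm1 and Atg12 at -0.21, -0.17, -0.15 and -0.22. These correlations are descriptions: the points share the tissue makeup and RNA quality of each gland.

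By the same measure the probe sets most like Gabarapl2 were those of Rab1b (r = 0.89), Pdha1 (0.87) and Pccb (0.86).

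The brightest probe sets of the 10 members were set against the array means of adipocyte, luminal and skeletal muscle genes, 30 relations in all. The permutations shuffled all 37 arrays without regard to run, so their p-values also take in shifts shared by the arrays of a run. Gabarap rose with the adipocyte mean (r = 0.65, rho = 0.71, permutation p 2e-05, adjusted 0.00060, n = 37), and r was 0.64 without the 2 arrays farthest from the median. It was 0.75 in the 22 arrays low in B lymphocyte genes and 0.52 in the 15 high ones, and 0.41, 0.59, 0.69 and 0.20 in the 4 runs. On its brightest probe set Atg5 fell with the skeletal muscle mean (r = -0.61, rho = -0.63, permutation p 5e-05, adjusted 0.00075), and r was -0.54 without the 2 farthest arrays. Within the runs r was -0.16, -0.037, -0.58 and -0.0035, so the relation was seen in run 3 and was near 0 or weak in the others. Becn1 passed against the muscle mean by rho (-0.55, adjusted permutation p 0.0038) but not by r (-0.41, adjusted permutation p 0.095), and the other 28 relations, Becn1 included, did not pass by r. Other probe sets of these genes were not set against the lists and did not follow the brightest one. They correlated with it at -0.61 and 0.064 for Atg5, and at 0.023, -0.49 and -0.33 for Becn1.

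The wider pathway was counted in 6 lists of 97 genes, 78 of which had a tested probe set. In the averaged restriction contrast 2 were called higher and 6 lower, with 25 of 78 positive and a median of -0.061, against 7.31% called and a median of -0.027 over all probe sets. These lists take each gene's brightest probe set. In a fit to the brightest probe set of every gene, 8.75% of 9295 were called, with a median of -0.024. The count of 6 lower was 1 with median centring and 1 after quantile normalization, while all 6 differences stayed negative, for instance -0.28 for Rb1cc1 (against -0.33 as deposited) and -0.32 for Tsc1 (against -0.38) with median centring. Without run 3 none of these 8 genes passed, with adjusted p of 0.13 to 0.68 by limma, where 0.448% of all probe sets were called. The difference of Wipi2 was then about as large, at -0.32. The others were smaller, by less for Sesn3 (-0.28) and Npc1 (-0.52). They were smaller by more for Rb1cc1 (-0.21), Tsc1 (-0.23), Keap1 (-0.090), Atp6v0d1 (0.19) and Mcoln1 (0.15). The wheel contrast and the interaction called 0 of the 78, as of all probe sets.

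In the list of initiation and nucleation genes, Rb1cc1, the scaffold of the ULK1 complex also called FIP200, fell by 0.33 ± 0.099 on the log2 scale (adjusted p 0.032), and it was the only call among 11 genes tested. Among 6 conjugation genes 0 were called by limma, where Atg7, which activates ATG12 and the ATG8 family, had 0.25 ± 0.12 (p 0.046, adjusted p 0.21). Among 7 genes of membrane supply Wipi2, which binds the marked membrane and recruits the conjugation machinery, had -0.30 ± 0.097 (adjusted p 0.049), and its second tested probe set had the opposite sign. Among 10 genes of cargo receptors and mitophagy Keap1, the adaptor that targets NRF2 for degradation, had -0.25 ± 0.081 (adjusted p 0.049).

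Lysosomal genes moved both ways, with 2 of 25 called higher and 1 lower. Atp6v0d1, a subunit of the proton pump that acidifies the lysosome, rose by 0.33 ± 0.077 (1.26-fold, adjusted p 0.0067). Mcoln1, a lysosomal calcium channel, rose by 0.29 ± 0.091 (adjusted p 0.042). Npc1, which exports cholesterol from the lysosome, was 1.57-fold lower (-0.65 ± 0.18, adjusted p 0.018). Among 19 upstream regulators Sesn3, a sestrin that restrains mTORC1, fell by 0.33 ± 0.095 (adjusted p 0.025), and Tsc1, a subunit of the complex that holds mTORC1 in check, fell by 0.38 ± 0.11 (adjusted p 0.027). Keap1, Wipi2 and Mcoln1 lay close to the threshold, and leaving out single arrays kept their calls in 9, 9 and 22 of 37 fits. With the mean of each gene's probe sets, Tsc1 gave -0.22, Keap1 -0.26 and Wipi2 -0.13. These did not pass (adjusted p 0.30, 0.30 and 0.46 by limma), while the other called pathway genes did.

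**Figure D4:**
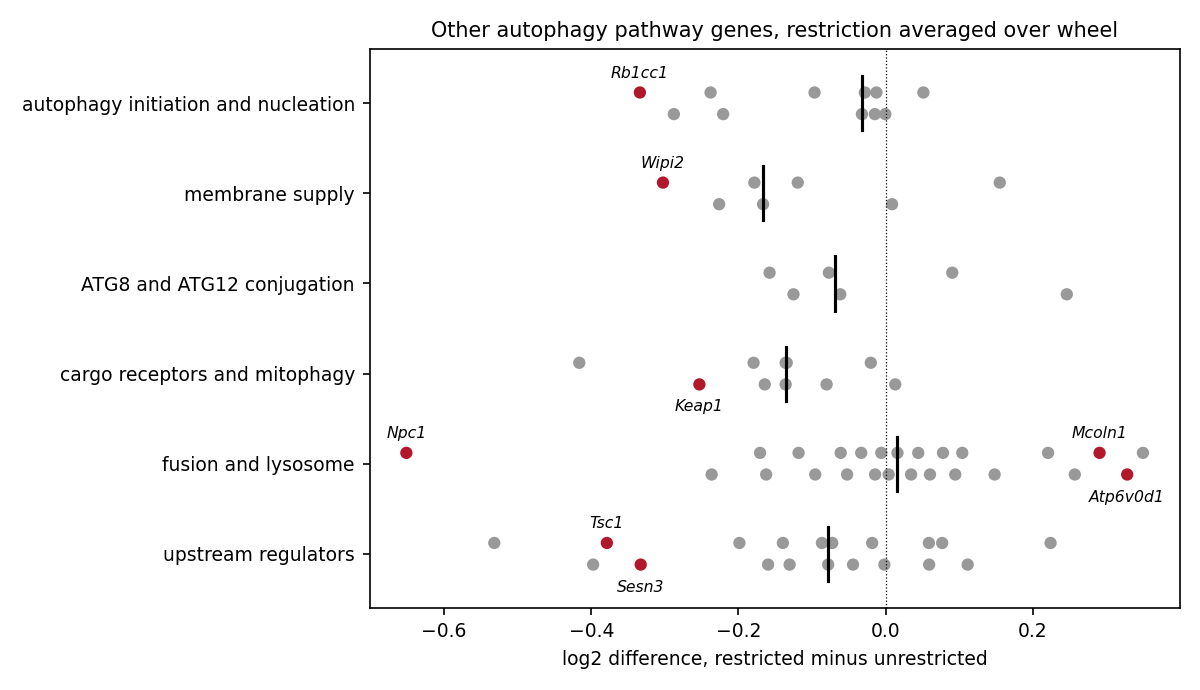
Log2 difference between restricted and unrestricted glands, averaged over the wheel states, for the 78 tested genes of the 6 pathway lists. Each point is a gene, red points passed the threshold and black bars are list medians, which lie between -0.17 (membrane supply) and 0.016 (fusion and lysosome). Npc1 at -0.65 is the lowest point.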

How the data were processed

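The deposited values are Affymetrix signal intensity on a linear scale, one array per animal, as the authors made them: GCOS version 1 is listed in the submitters' processing notes. How GCOS computed the signal, and any filter, is not given in the sources used here. Trimmed means near 500.2 show that the authors scaled the arrays, so no scaling was added. Symbols came from the platform table through Entrez IDs: 20380 probe sets named 1 gene, 691 several and 1555 none, and 64 were controls. The 25% of non-control probe sets with the lowest mean (signal under 63.3) were left out. Group means were fitted to log2(signal + 16) with limma 3.58.1 in R 4.3.3 (trended eBayes, 33 residual degrees of freedom), and 9 contrasts were tested two-sided. The same code was tested on simulated data. Relations with tissue lists used 100000 permutations (scipy 1.17.1). Runs are the animal numbers cut after every 24.

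The members and lists were chosen with earlier results of these data known. The text names all 10 members, the pathway genes that passed the averaged restriction contrast, and the 3 genes most like Gabarapl2. The rule also named those of the brightest member, which are not given because levels of different probe sets cannot be ranked. Atg7 was added after its values were seen. Alternatives were another offset, filter, scaling, probe set rule or variance model, the run as a block, and arrays left out. Groups were taken from the labels. Each array is a separate animal number.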

Additional observations from a re-analysis of the deposited data

Results flagged for a closer look

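In 12 of 80 groups of arrays (20 probe sets in 4 groups), one array lay apart from the rest of its group by Dixon's test. Chance flags about 1 in 20 groups. Values are signals, each beside the range of the other arrays of its group. Of the 12, 7 fell on arrays high in B lymphocyte genes, which were 15 of the 37 arrays. On arrays with a high Gapdh ratio, 5 of the 37, there were 0. A link with either was not tested.

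Replicate 6 of CR+EX was highest for 2 probe sets of Map1lc3b, with 6375 against 3870 to 4971 (1415929_at) and 4612 against 3144 to 3802 (1415928_a_at). Replicate 1 of CR was lowest for Gabarap, with 3187 against 4949 to 7501 (the 4 restricted glands of its run lay between 2538 and 4949), and for a Ulk1 probe set (1416504_at), with 65.6 against 240.6 to 441.7. The other Ulk1 probe set (1448370_at) was lowest in replicate 8 of CR+EX, at 674 against 1005 to 1304.

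Each of the 4 Becn1 probe sets had such an array. They were replicate 7 of CR+EX at 516 against 759 to 1106 (1460320_at), replicate 3 of AL+EX at 372 against 551 to 777 (1455880_s_at), replicate 3 of AL at 81.1 against 164 to 329.8 (1435219_x_at), and replicate 8 of AL+EX at 43.7 against 121 to 252 (1437006_x_at). These were 4 different arrays.

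Atg5 was lowest in replicate 6 of AL at 171 against 302 to 441 (1415684_at), and in replicate 10 of AL at 24 against 59 to 115 (1418235_at). The dimmer Atg12 probe set (1451746_a_at) was lowest in replicate 8 of CR at 43.7 against 181 to 429.9.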

How the results depend on the processing

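Of the members, Gabarapl2 kept a positive difference in all 16 settings tried for the averaged restriction contrast (0.20 to 0.39) and its call in 13. Sqstm1 kept a negative difference in all 16 and passed in 2. The number of members called higher, 1, became 0 without arrays high in B lymphocyte genes, 0 without arrays high in the Gapdh ratio, 0 without run 3 and 2 without run 1. Over all probe sets the share called in these settings was, in that order, 3.65%, 5.56%, 0.448% and 7.05%. The number called lower, 0, became 1 after quantile normalization, where 6.9% of all probe sets passed, and 1 with the run block. With the run block, 1 member passed in CR against AL and 1 in CR against AL+EX, where 6.56% and 7.73% of all probe sets passed, and 17.5% in the averaged contrast. Leaving out each run was added after seeing the data. Pathway genes called higher (2) became 1 with no filter, 4 with the run block, 1 without arrays of high B lymphocyte signal (B-high) and 1 without those of high Gapdh ratio (Gapdh-high), and 1, 1, 0 and 1 without runs 1 to 4. Those called lower (6) became 1 with median centring, 1 with quantile normalization, 11 with the run block, 2 without B-high and 1 without Gapdh-high arrays, 1 without run 1 and 0 without run 3. Leaving out single arrays gave 1 to 1 members higher and 0 to 0 lower, and 1 to 3 pathway genes higher and 2 to 6 lower. Uncalled values changed sign for Map1lc3a (-0.018 with quantile normalization, -0.049 without Gapdh-high arrays, -0.11 without run 3; -0.050 to 0.075 leaving out single arrays), Gabarapl1 1416418_at (0.019 without run 1), Becn1 1460320_at (-0.014 as the mean of probe sets) and 1435219_x_at (-0.055 without run 2), Atg5 1418236_s_at (0.010 without run 1) and 1418235_at (-0.033 with offset 64, -0.20 without B-high arrays, -0.23 without run 4; -0.12 to 0.082 leaving out single arrays), Atg12 1451747_a_at (0.019 as the mean of probe sets, 0.010 without Gapdh-high arrays, 0.024 without run 1) and Ulk1 1416504_at (0.15 without B-high arrays). The cause was not tested. No paired analysis was possible because the titles carry only animal numbers, which are unique; the replicate numbers used here were given in accession order and pair no animals. The run block stands in its place. Signals of a few dim probe sets lay near background, which limits what they can show.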
